A study of Danio rerio with 2 samples.

Results

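The genes described here are 10 transcription factors that pattern the vertebrate neural tube along its dorsoventral axis: gsx1, gsx2, dbx1a, dbx1b, dbx2, nkx6.1, nkx6.2, nkx2.2a, olig2 and olig4. They were taken by name from a gene expression table of 34728 loci, and each of the 10 matched a single locus that carried no other gene name and overlapped no other locus. The table compares RNA from whole zebrafish embryos at 32 hours post fertilisation, grown at 28 °C, in 1 library from embryos mutant for supt16h (supt16h-/- in the series' design) and 1 library from wild-type siblings. Its product is the large subunit of the histone chaperone FACT, which opens and rebuilds nucleosomes during transcription and replication. The mutant allele, the number of embryos in each library and whether the siblings included heterozygous carriers are not given in the sources used here. The series was made to map the mutation by linkage from variants in the RNA, so each group is a single library, and no difference below has a check against variation between embryos.

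Neural progenitors lie in stacked domains from the roof plate to the floor plate of the neural tube. Bmp and Wnt signals come from the dorsal side and Sonic hedgehog from the ventral side. These signals switch homeobox and Olig factors on or off, and pairs of the factors repress each other across domain borders. Each combination of factors then sets which neurons or glia a domain makes. Much of this scheme was worked out in mouse and chick. Several of the factors are also used outside the spinal cord, Gsx genes in the forebrain and Nkx6 and Nkx2.2 genes in the endocrine pancreas.

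All 10 factors were listed at a lower level in the mutant library than in the sibling library. Gene levels are FPKM as the authors deposited them, that is, fragments per length of transcript scaled for library size. The options of that scaling are not given. Over the 10 factors the levels ran from 0.536 to 22.2 FPKM with a median of 7.29 in the mutant library, and from 9.06 to 59.8 FPKM with a median of 23.3 in the sibling library. The ranges overlap, because the 10 genes differ from each other in level. Summed over the 10, the factors came to 94.1 FPKM in the mutant library and 275 FPKM in the sibling library, a 2.93-fold lower sum. In whole embryos, fewer cells of a type and less RNA per cell cannot be told apart.

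**Figure D1:**
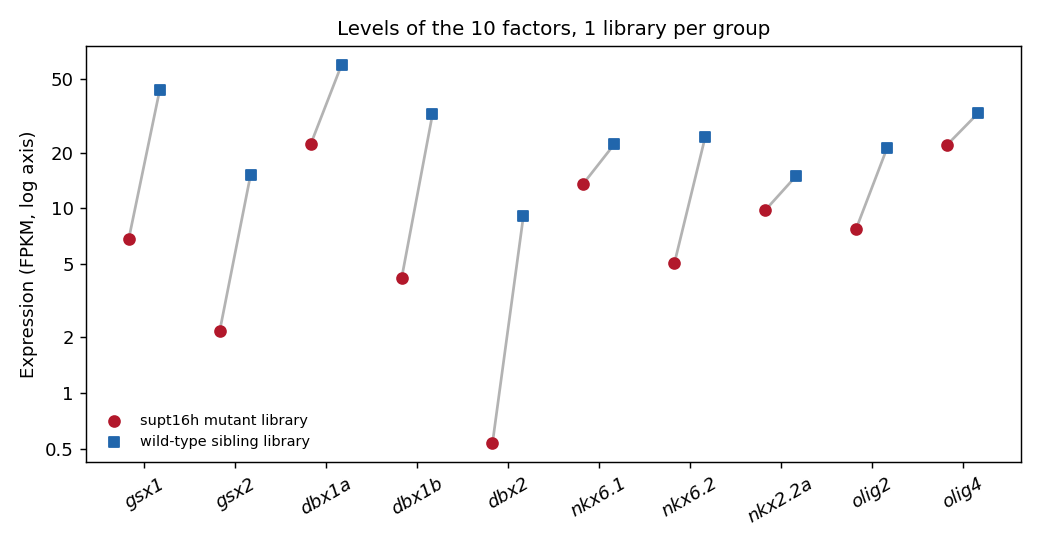
Expression in FPKM on a log axis of the 10 factors in the supt16h mutant library (red circles, left of each pair) and the wild-type sibling library (blue squares), 1 library per group and no error bars. The mutant value lies below the sibling value for all 10 factors, with the widest gap at dbx2 (0.536 and 9.06 FPKM) and narrow gaps at nkx6.1, nkx2.2a and olig4.

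Differences are on the log2(FPKM + 1) scale, mutant minus sibling, which understates the change of genes at low levels. On this scale 7 of the 10 factors stood lower by 2-fold or more in the mutant library, and 0 stood higher by that much. Among all 20638 measured loci, those with a mean of at least 1 FPKM over the libraries, 8.36% were at least 2-fold lower and 6.75% at least 2-fold higher. All 10 factors passed the limit of 1 FPKM. A locus can pass it through 1 library alone. The level of dbx2 was 0.536 FPKM in the mutant library, so it passed through the sibling library, at 9.06 FPKM. Among the 11056 loci whose mean lay within the range of the factors' own means, 4.80 to 41.0 FPKM, 1106 were at least 2-fold lower. The median difference of the 10 factors was -1.73, and that of all measured loci was 0.0012.

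**Figure D2:**
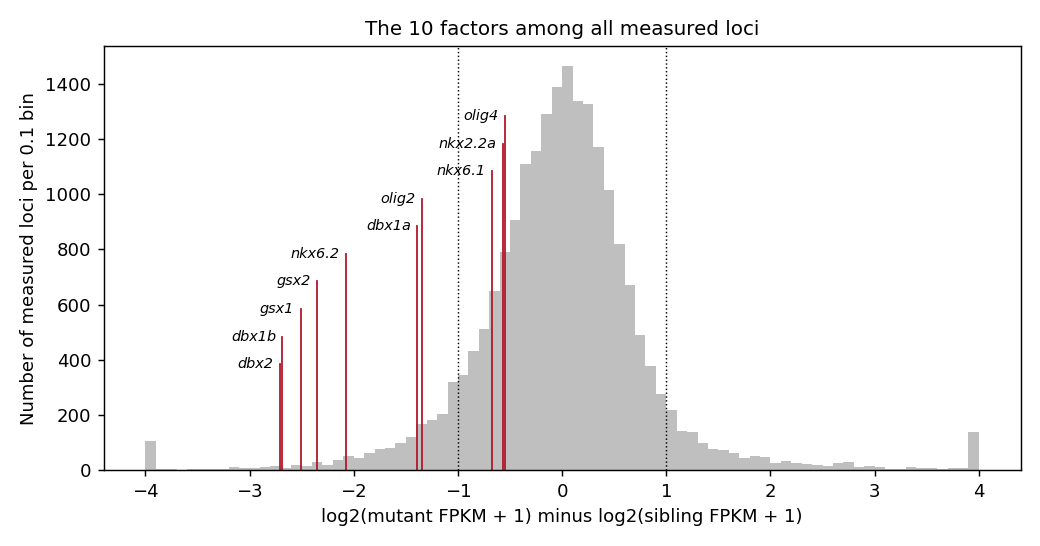
Number of measured loci (grey, bins of 0.1) by difference on the log2(FPKM + 1) scale, mutant minus sibling, with differences beyond 4 in either direction stacked in the end bins. Red lines mark the 10 factors at staggered heights that carry no value, and dotted lines mark 2-fold differences. The factors lie between -2.71 (dbx2) and -0.55 (olig4), with 7 of them left of the 2-fold line.

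With 1 library per group there is no test between genotypes, and the only test values are the authors' own. The authors' deposited table calls 3 of the 10 factors lower, gsx1, gsx2 and dbx1b, and 0 higher. Of the 20044 loci tested there, 0.284% were called lower and 0.185% higher. A q value in that table compares these libraries and not the genotypes. A standard error was read from the table as the authors' log2 change divided by its test statistic. For the 10 factors this implied standard error lay between 0.595 (olig4) and 1.30 (dbx2), against a median of 0.741 over tested loci, so a change of about 2-fold was within the error of the authors' model. The intervals below are that log2 change ± 1.96 implied standard errors. They lay wholly below 0 for 7 of the 10 factors. By construction, these are the factors with an unadjusted p below 0.05 in the authors' deposited table. Of the loci tested there, 4.05% were lower at that p.

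**Figure D3:**
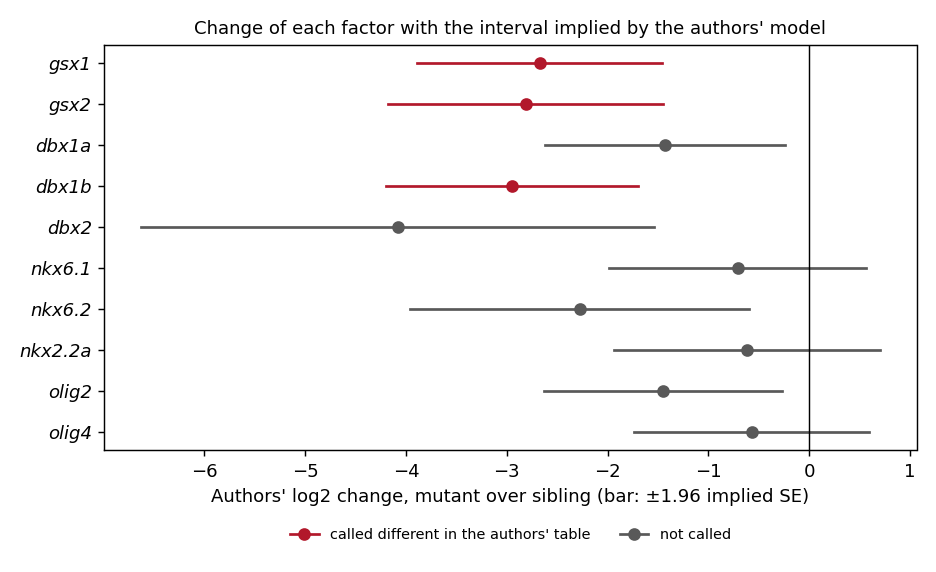
The authors' deposited log2 change of each factor, mutant over sibling, with bars of ± 1.96 implied standard errors; red marks the factors their table calls different. The bars of gsx1, gsx2 and dbx1b end below -1.4, while those of nkx6.1, nkx2.2a and olig4 cross 0.

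The Gsx homeobox factors mark progenitors of dorsal interneurons in the spinal cord and hindbrain and, in the mouse forebrain, progenitors of the lateral ganglionic eminence. In the coordinates of the Zv9 build, gsx1 spans 71057496 to 71058964 on chromosome 5. It was listed at 6.83 FPKM in the mutant library and 43.6 FPKM in the sibling library, 6.39-fold lower. The sibling library held gsx1 as the second highest of the 10 factors, and the mutant library as the sixth. The authors' deposited table gives gsx1 a log2 change of -2.68 with an implied standard error of 0.62 (interval -3.89 to -1.46, q = 0.00676).

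The gsx2 locus lies on chromosome 20 from 22469343 to 22470917. Its level was 2.17 FPKM in the mutant library and 15.21 FPKM in the sibling library, 7.02-fold lower. The authors' deposited table gives gsx2 a log2 change of -2.81 with an implied standard error of 0.70 (interval -4.18 to -1.45, q = 0.0171). Their levels differed in both libraries. The ratio of gsx1 to gsx2 was 3.15 in the mutant library and 2.87 in the sibling library. Their log2 changes differed by 0.14, with an interval of -1.69 to 1.96 from the combined implied standard error. That interval is wide and does not show that the genes changed alike. Of the measured loci, 215 had a lower difference than gsx1 and 243 a lower difference than gsx2.

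Dbx homeobox factors mark progenitors in the middle of the neural tube. In mouse, Dbx1 defines the p0 domain, the source of the V0 commissural interneurons, and Dbx2 covers a wider band around it. Zebrafish have the duplicated pair dbx1a and dbx1b. The dbx1b locus lies on chromosome 25 from 14768243 to 14771154. It was listed at 4.17 FPKM in the mutant library and 32.2 FPKM in the sibling library, 7.73-fold lower. The authors' deposited table gives dbx1b a log2 change of -2.95 with an implied standard error of 0.64 (interval -4.20 to -1.70, q = 0.00220), the lowest q of the 10 factors.

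The dbx1a locus lies on chromosome 7 from 17799841 to 17803249. The level of dbx1a was 22.2 FPKM in the mutant library and 59.8 FPKM in the sibling library, 2.70-fold lower, and it was the highest of the 10 factors in both libraries. It was not called in the authors' deposited table (log2 change -1.43, implied standard error 0.61, q = 0.523). The level of dbx1a was 5.32 times that of dbx1b in the mutant library and 1.86 times in the sibling library. The log2 change of dbx1b lay 1.52 below that of dbx1a by value (difference -1.52), but the interval of that difference, -3.25 to 0.21, included 0. Of the factors placed on a chromosome, dbx1a alone lies on that of supt16h, 16.04 Mb from it.

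The dbx2 locus lies on an unplaced scaffold, Zv9_scaffold3556, from 4518 to 13947. It was the lowest of the 10 factors in both libraries, with 0.536 FPKM in the mutant library and 9.06 FPKM in the sibling library. The ratio is 16.9-fold, the widest of the 10, and it rests on a mutant level lower than that of nearly all measured loci (percentile 1.18). The authors' deposited table did not call dbx2 (log2 change -4.08, q = 0.166), and its implied standard error of 1.30 was the widest of the 10. The interval for dbx2 ran from -6.63 to -1.53, and its nearest end is a 2.9-fold lower level.

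Nkx6 homeobox factors act in the ventral neural tube, where Nkx6.1 helps set the progenitors of motor neurons and V2 interneurons. In mouse, Nkx6.2 reaches further dorsally, into the p1 domain. The nkx6.2 locus lies on chromosome 13 from 52988348 to 52991928. Its level was 5.03 FPKM in the mutant library and 24.4 FPKM in the sibling library, 4.85-fold lower. It was not called in the authors' deposited table (log2 change -2.28, implied standard error 0.86, interval -3.96 to -0.59, q = 0.382).

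The nkx6.1 locus lies on chromosome 21 from 17886032 to 17888943. The gene stood at 13.6 FPKM in the mutant library and 22.2 FPKM in the sibling library, a ratio of 1.64 that did not reach 2-fold. The authors' deposited table gives nkx6.1 a log2 change of -0.71 with an interval of -1.98 to 0.56, and it was not called. The Nkx6 genes had similar levels in the sibling library, with nkx6.2 at 1.096 times nkx6.1, and differed in the mutant library, with nkx6.2 at 0.370 times nkx6.1. The difference between their log2 changes was -1.57, with an interval of -3.68 to 0.54 that included 0.

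The homeobox factor Nkx2.2 marks the p3 domain beside the floor plate, which makes V3 interneurons, and it represses motor neuron fate there. The nkx2.2a locus lies on chromosome 17 from 42929654 to 42937363. Its level was 9.76 FPKM in the mutant library and 15.0 FPKM in the sibling library, 1.53-fold lower. The log2 change of nkx2.2a in the authors' deposited table was -0.62 (interval -1.93 to 0.70), and it was not called. It ranked 4 of the 10 factors in the mutant library and 9 in the sibling library.

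Olig2 is the basic helix-loop-helix factor of the pMN domain, which makes motor neurons and later oligodendrocyte precursors. The olig2 locus lies on chromosome 9 from 33784735 to 33786843. It was listed at 7.75 FPKM in the mutant library and 21.2 FPKM in the sibling library, 2.74-fold lower. The authors' deposited table gives olig2 a log2 change of -1.45 (interval -2.64 to -0.27, q = 0.496), not called.

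The related bHLH gene olig4 lies on chromosome 13 from 46534585 to 46535661. The level of olig4 was 22.1 FPKM in the mutant library and 32.7 FPKM in the sibling library, 1.48-fold lower, the narrowest ratio of the 10 factors. Its log2 change in the authors' deposited table was -0.57 (interval -1.73 to 0.60), not called. The difference between the log2 changes of olig2 and olig4 was -0.88, with an interval of -2.55 to 0.78.

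By listed value, the makeup of the group differed between the libraries, and no share has a check against variation between embryos. The Gsx and Dbx genes made up 9.57% and 28.6% of the summed FPKM of the 10 factors in the mutant library, against 21.4% and 36.7% in the sibling library. The Olig genes made up 31.7% in the mutant library and 19.6% in the sibling library, and nkx2.2a 10.4% and 5.44%. The Nkx6 genes held 19.8% in the mutant library and 16.9% in the sibling library. By value, members of a family did not all move together. Alone, olig4 held 23.4% in the mutant library and 11.9% in the sibling library, and olig2 8.24% and 7.70%. The share of dbx1a was 23.6% and 21.7%, while those of dbx1b and dbx2 were lower in the mutant library. For nkx6.1 the shares were 14.5% and 8.08%, and for nkx6.2 they were 5.35% and 8.85%. The 5 factors with a ratio over 4-fold were dbx2, dbx1b, gsx2, gsx1 and nkx6.2. The ratio of dbx1a and olig2 was near 2.7-fold, and those of nkx6.1, nkx2.2a and olig4 lay below 2-fold. With no replicate, it cannot be said which neighbours in these orders differ beyond the spread between embryos.

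The 3 factors below 2-fold include nkx2.2a, which marks the most ventral domain. The other ventral factors were lower by 4.85-fold (nkx6.2), 2.74-fold (olig2) and 1.64-fold (nkx6.1). The genes of the ventral signal were set beside these factors, and a link between their levels was not tested. Of 25 measured genes of the floor plate and Hedgehog signalling, 8 were at least 2-fold lower and 0 higher, and their median difference was -0.49. The authors' deposited table calls 0 of them, and 4 of the 25 had an unadjusted p below 0.05 there. The Hedgehog ligand shha stood at 15.5 FPKM in the mutant library and 17.3 FPKM in the sibling library, and the floor plate factor foxa2 at 6.04 and 5.88 FPKM. The netrin genes, axon guidance cues of the floor plate, stood lower, with ntn1a at 4.68 FPKM in the mutant library and 10.9 FPKM in the sibling library and ntn1b at 4.43 and 8.95 FPKM. The largest difference of this list was at the co-receptor boc (10.8 FPKM in the mutant library and 36.1 FPKM in the sibling library). Next came the co-receptor cdon (11.9 and 36.2 FPKM) and the transcription factors gli2b (1.83 and 6.63 FPKM) and gli3 (0.553 and 3.08 FPKM). By sign, 21 of the 25 genes lay below 0 and 4 above. The boc and gli3 loci are overlapped by 7 and 4 other loci of the table, and how reads were split among them is not known. The Hedgehog receptor and target gene ptch1 stood at 8.87 FPKM in the mutant library and 14.6 FPKM in the sibling library, 1.65-fold lower. The implied standard errors of boc and ptch1 were wide, at 9.41 and 8.32. The choice of shha, foxa2, ntn1a, ntn1b and ptch1 was made after their values were seen.

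Most other factors of the progenitor domains also stood lower. Of 30 measured genes of the roof plate and dorsal progenitors, 14 were at least 2-fold lower and 0 higher, with a median of -0.94. By sign, 26 of the 30 lay below 0 and 4 above. Those above were msxb (35.4 FPKM in the mutant library and 27.0 FPKM in the sibling library), gbx2 (5.42 and 3.55 FPKM), msxd (13.5 and 10.5 FPKM) and bmp4 (5.45 and 5.29 FPKM). These 4 genes were picked after their values were seen. The largest differences were at ptf1a, a factor of GABAergic dorsal interneurons (0.948 FPKM in the mutant library and 8.12 FPKM in the sibling library), pax3a, a dorsal paired-box factor (2.30 and 14.4 FPKM), and the proneural genes atoh1a (2.89 and 14.5 FPKM) and atoh1b (6.14 and 26.5 FPKM). Of 19 measured genes of intermediate and ventral progenitors, 7 were at least 2-fold lower and 0 higher, with a median of -0.88. These were led by pax6b, a paired-box factor of neural tube and eye (6.02 FPKM in the mutant library and 34.5 FPKM in the sibling library), foxn4, a forkhead factor of V2 and retinal progenitors (20.4 and 76.1 FPKM), prdm8 (3.26 and 11.5 FPKM) and the proneural gene ascl1a (9.06 and 25.7 FPKM). The authors' deposited table calls 0 genes of either list, and 10 and 4 of them had an unadjusted p below 0.05 there. The close relative nkx2.2b stood at 3.86 FPKM in the mutant library and 4.66 FPKM in the sibling library, and nkx6.3 at 1.24 and 3.70 FPKM; both were picked after their values were seen.

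**Figure D4:**
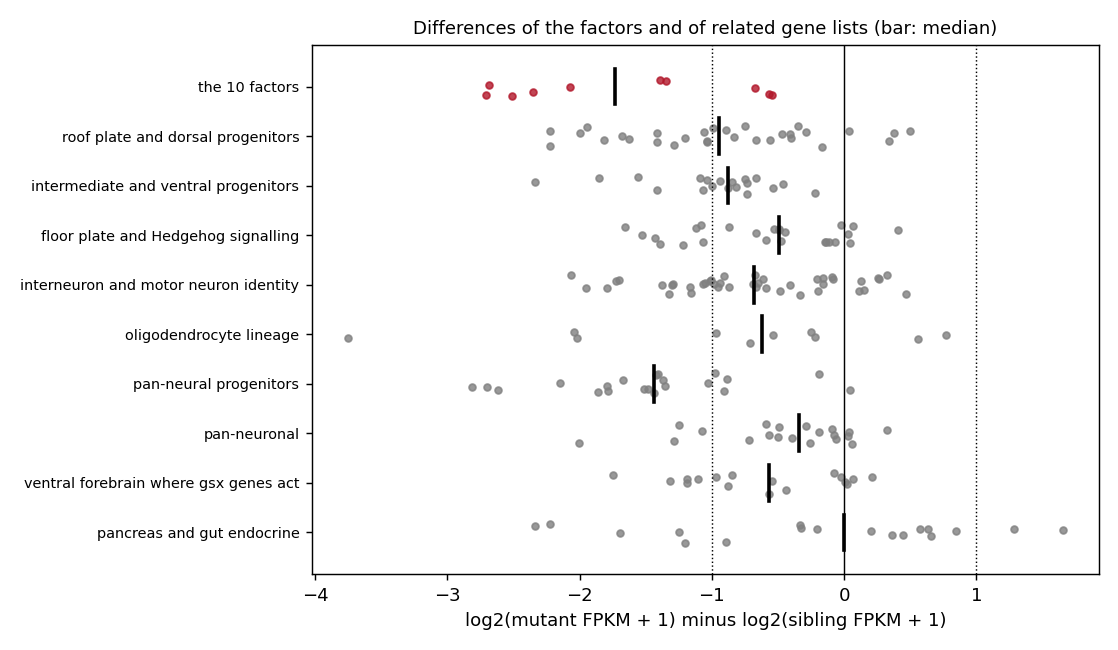
Difference on the log2(FPKM + 1) scale, mutant minus sibling, of each measured gene in the 10 factors (red, top) and 9 related gene lists (grey), with medians as black bars and 2-fold differences as dotted lines; vertical scatter within a list carries no value. The medians of the 10 factors (-1.73) and of the pan-neural progenitor genes (-1.43) lie furthest to the left, and that of the pancreas and gut endocrine list lies at -0.0016.

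Most general markers of neural progenitors stood lower along with the 10 factors. Of 21 measured pan-neural progenitor genes, 16 were lower by 2-fold or more and 0 higher, and their median difference was -1.43. The authors' deposited table calls 2 of them lower. These were her4.1, a Notch target among near-identical copies (8.01 FPKM in the mutant library and 57.4 FPKM in the sibling library), and the receptor notch1b (6.06 and 42.3 FPKM). The receptors notch1a, at a locus of only 249 bases (8.75 FPKM in the mutant library and 67.7 FPKM in the sibling library), and notch3 (26.8 and 122 FPKM) were not called. Little difference was listed at her6 (46.3 FPKM in the mutant library and 44.9 FPKM in the sibling library) and her9 (49.7 and 57.0 FPKM). The genes her6 and her9 were picked after their values were seen. The summed level of the 21 genes was 1333 FPKM in the mutant library and 3345 FPKM in the sibling library. The part of progenitor number in the levels of the 10 factors was not tested.

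Genes of the neurons that these domains make were lower by a smaller median. Of 42 measured genes of interneuron and motor neuron identity, 15 were at least 2-fold lower and 0 higher, with a median of -0.68. The authors' deposited table calls 0 of them, and 9 had an unadjusted p below 0.05 there. The largest differences were at barhl1b, of dorsal interneurons (0.766 FPKM in the mutant library and 6.39 FPKM in the sibling library), vsx1, of V2 interneurons and retinal bipolar cells (1.198 and 7.50 FPKM), lbx1b, of dorsal interneurons (1.24 and 6.77 FPKM), and lhx1a, a LIM homeobox gene of several interneuron classes (4.18 and 16.1 FPKM). The V0 genes, made from the Dbx domain, were evx2 (1.56 FPKM in the mutant library and 4.15 FPKM in the sibling library) and evx1 (6.03 and 10.2 FPKM), whose locus is overlapped by 7 others. The Isl and Mnx genes of motor neurons, made from the Olig2 domain, did not all stand alike. Differences of less than 1.3-fold were found at isl1 (20.4 FPKM in the mutant library and 25.9 FPKM in the sibling library), mnx1 (5.03 and 5.96 FPKM), isl2a (13.0 and 14.7 FPKM) and isl2b (6.41 and 5.85 FPKM). Lower levels were listed at mnx2a (1.60 FPKM in the mutant library and 4.014 FPKM in the sibling library) and at mnx2b (2.82 and 6.01 FPKM), whose locus is overlapped by 2 others. The implied standard errors of evx1 and mnx2b were wide, at 5.93 and 4.26. Both isl1 and mnx1 are also in the pancreas and gut endocrine list. How much of the Isl and Mnx signal came from motor neurons was not tested. The V0 and motor neuron genes were picked after their values were seen. Of 20 measured genes of the pan-neuronal list, which also holds neurod genes, 4 were at least 2-fold lower and 0 higher, with a median of -0.34. They were neurod4 (26.0 FPKM in the mutant library and 107 FPKM in the sibling library), elavl3 (83.4 and 205 FPKM), neurod1 (8.27 and 21.0 FPKM) and neurod6b (2.66 and 6.71 FPKM). No implied standard error could be read for neurod6b, and that of elavl3 was 1.43. By sign, 16 of the 20 lay below 0 and 4 above. Little difference was listed at elavl4 (22.1 FPKM in the mutant library and 25.3 FPKM in the sibling library), gap43 (28.0 and 27.2 FPKM) and snap25a (49.2 and 51.8 FPKM), picked after their values were seen.

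Tissues outside the spinal cord that also use these factors were described in the same way. Of 17 measured genes of the ventral forebrain, where Gsx genes act, 5 were at least 2-fold lower and 0 higher, with a median of -0.57. They included the hypothalamic factor otpa (10.8 FPKM in the mutant library and 38.5 FPKM in the sibling library), lhx6 (0.503 and 2.73 FPKM), dlx2a, a distal-less gene of forebrain GABAergic precursors (8.39 and 20.4 FPKM), and hmx3a (2.28 and 6.46 FPKM). Of 18 measured genes of the pancreas and gut endocrine list, where Nkx6 and Nkx2.2 genes act, 5 were at least 2-fold lower and 2 at least 2-fold higher, with 9 below 0 and 9 above. Those lowest, pax6b, ptf1a and insm1a (25.8 FPKM in the mutant library and 85.6 FPKM in the sibling library), are shared with the nervous system. The hormone genes pointed the other way, with ghrl listed at 2.15 FPKM in the mutant library and at 0 in the sibling library, sst2 at 25.3 and 9.79 FPKM and ins at 49.6 and 27.2 FPKM. The authors' deposited table calls 0 genes of the forebrain and endocrine lists, where 4 and 6 had an unadjusted p below 0.05 in either direction. The 6 include sst2, which stood higher in the mutant library. The genes sst2 and ins were picked after their values were seen. How much of the nkx6.1, nkx6.2 and nkx2.2a signal came from the pancreas was not tested.

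Taking the related lists as 1 set of 194 distinct measured genes, 73 were at least 2-fold lower and 2 at least 2-fold higher, and the median difference was -0.73. The genes of these lists nearest to the median of the 10 factors were lhx1a, otpa and pax2a. The level of pax2a, a paired-box gene of the midbrain-hindbrain border and of interneurons, was 5.63 FPKM in the mutant library and 20.6 FPKM in the sibling library. With 2 libraries a pattern is a single difference, so this nearness says only that these genes differed by a similar amount.

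Facts of the libraries that touch all of these values are few. Expression of supt16h itself was 2.98 FPKM in the mutant library and 44.4 FPKM in the sibling library, 14.9-fold lower, which fits the library labels. The summed level of all loci was 1095954 FPKM in the mutant library and 1029581 FPKM in the sibling library. A locus was listed at 0 in the mutant library alone in 678 cases and in the sibling library alone in 1999 cases. None of the 10 factors was listed at 0 in either library.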

How the data were processed

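No deposited value was rescaled for the main results. Per the file headers, the expression table is Cuffdiff output and gives each locus an FPKM for each library. The tools in the submitters' processing notes are Cuffdiff, Cufflinks 2.2.1, TopHat2 2.1.1 and CASAVA 1.8, given without options, and the build is Zv9. Per the labels' protocols, 1 µg of total RNA gave a stranded library of polyadenylated RNA, read from both ends at 50 nucleotides. The p-value and q-value columns, the log2 change and the test statistic (a score) were deposited by the authors and compare 1 library with 1. The sign of that statistic runs against the log2 change, so its size was used. Its normal tail on both sides gave the deposited p-value within 0.001 at 100% of 19583 loci with a finite statistic. The highest q the authors called was 0.0470. Per the file headers, the deposited variant table comes from SnpEff 3.1k, and it gives the count of reads at each site, from 2 to 955.

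Loci of status FAIL (15 loci) or whose mean was under 1 FPKM did not enter the counts, and a difference was counted at 2-fold with 1 FPKM added. No test, SD or replicate check was possible with 1 library per group, and intervals come from the authors' model alone. Depth is not stated, and FPKM hides it. Low values were searched for whole-read steps, but the commonest ratio of the libraries was shared by only 151 of 4528 loci below 1 FPKM in both, so reads were not recovered. Lists held 231 distinct names, of which 211 were found at a locus, 13 of the memberships through RefSeq synonyms (GRCz12tu). Genes named are the 10 factors, supt16h, the 4 largest differences of each list, genes called by the authors, the 3 nearest to the factors' median and the neighbouring loci; others are marked. The factors and lists were chosen with earlier results of these data known. Counting was tested on simulated data with a large fixed shift at well expressed loci, so that check does not cover low levels. Python 3.11.15, pandas 2.3.3 and numpy 2.4.6 were used. Alternatives were another pseudocount (0.1 or 5), limit on the mean (none or 5 FPKM), scaling, fold (1.5 or 4) and threshold of the authors' table.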

Additional observations from a re-analysis of the deposited data

How the results depend on the processing

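All 10 factors stayed below 0 under each alternative scaling. Another pseudocount or limit on the mean cannot change the sign of a factor's difference. Between 5 (4-fold) and 8 (1.5-fold) factors passed as lower, 6 with a mean of at least 5 FPKM, which leaves out dbx2, and 0 as higher under any alternative. The median of the 10 ran from -1.85 (0.1 FPKM added) to -1.30 (5 FPKM added). The difference of dbx2 depended most on the amount added, with -3.85 at 0.1 FPKM and -1.34 at 5 FPKM, and those of gsx2 and dbx1b were -1.50 and -2.02 at 5 FPKM. The other 56 of 60 recomputed differences of single factors moved by less than 1.5-fold. The 60 include the alternative limits on the mean, which cannot move the difference of a single factor. In the authors' deposited table, 3 factors were called at q below 0.1 as well, and 7 had an unadjusted p below 0.05.

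Among the 194 genes of the related lists, 73 stood lower and 2 higher by 2-fold or more. The lower count was 39 with 5 FPKM added, 111 at 1.5-fold and 12 at 4-fold. The higher count was 1 with 5 FPKM added, with a mean of at least 5 FPKM and with equal sums of FPKM, 6 at 1.5-fold and 0 at 4-fold. Scaling moved the median of all measured loci by less than 0.1. With a single library per group, leaving out a library gave no value.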

Other observations

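The oligodendrocyte lineage, which arises from the Olig2 domain, was thinly covered at this stage. Of 10 measured genes of that list, 3 stood lower by 2-fold or more and 0 higher, with a median difference of -0.62. The proteolipid gene plp1a fell to 7.78 FPKM in the mutant library, against 117 FPKM in the sibling library, as called in the authors' deposited table. The others were sox9b, a factor of glia, crest and cartilage (10.4 FPKM in the mutant library and 45.8 FPKM in the sibling library), and the receptor gene pdgfra at the higher of its 2 loci (4.60 and 21.7 FPKM). The myelin gene mpz stood at 2.74 FPKM in the mutant library and 6.299 FPKM in the sibling library, and the lineage gene sox10 at 6.68 and 10.1 FPKM. The myelin-associated genes cldnk (3.47 FPKM in the mutant library and 1.61 FPKM in the sibling library) and mbpb (20.9 and 13.8 FPKM, at a locus overlapped by 1 other) stood higher in the mutant library. The count of higher genes was 1 with 0.1 FPKM added or at 1.5-fold. The olig2 paralogue olig1 stood at 0.0962 FPKM in the mutant library and was listed at 0 in the sibling library, and mbpa was listed at 0 in both. The genes sox10, cldnk, mbpb, olig1 and mbpa were picked after their values were seen. How much of the signal of plp1a, pdgfra, sox10 or the other genes came from the oligodendrocyte lineage was not tested.

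Of 19 neighbours, the nearest named loci on either side of the 10 factors, 11 were measured, with a median difference of 0.05, and 1 was at least 2-fold lower and 0 higher. That 1 was a pdgfra locus 9771 bases from gsx2 (1.34 FPKM in the mutant library and 3.81 FPKM in the sibling library). The nav2b locus, 295 bases from dbx1b, stood at 3.57 FPKM in the mutant library and 4.64 FPKM in the sibling library. The locus named NAV2 (1 of 2), 9607 bases from dbx1a, stood at 3.42 FPKM in the mutant library and 7.48 FPKM in the sibling library, a difference of -0.94. The authors' deposited table calls 0 of the 19. None of the 10036 annotations in the variant table used here names any of the 10 factors.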
